A study of Homo sapiens with 6 samples.

Results

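Clone-named loci are transcribed loci that carry only names built from the genomic clone in which they were annotated, such as RP11-669N7.2 or AC073236.3. They were taken from the deposited table by the form of the name: every name of a locus had to begin with RP and a number, CTA to CTD, AC, AL or AP, and to end in a version number. Members were further selected on their measured level: the 6 libraries had to average 1 FPKM or more, where FPKM is fragments per kilobase of transcript scaled to library size. Loci on chromosome Y were left out. Of 62828 loci in the table, 817 met this rule. They are what remains of 20117 clone-named loci at any level, and they stand among 12825 loci of every kind at that level or above. The level itself is therefore given as a description.

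The libraries come from K562, an established human chronic myelogenous leukemia line, and the series title concerns the part of HNRNPU in keeping lncRNAs (long noncoding RNAs) in the nucleus. Cells were transfected either with control oligos or with 300 nM siRNA against HNRNPU, a nuclear protein that binds RNA and chromatin. Whole-cell, nuclear and cytosolic RNA of each condition was depleted of ribosomal RNA and sequenced from strand-specific libraries, which gives 6 groups of 1 library. No difference therefore has a replicate check, and no test was made. It was not given in the sources used here whether 1 culture supplied all 3 preparations.

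A clone-based name is a placeholder that annotators give to a transcript with no approved symbol. Most such transcripts are long noncoding RNAs, antisense transcripts, transcripts inside introns and pseudogenes, and a name of this kind says nothing about function. Many nuclear lncRNAs are retained at chromatin near the place of transcription, and unspliced RNA of a host gene is nuclear too, whereas spliced and polyadenylated transcripts can be exported to the cytosol.

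Gene types could be looked up for few members. The table gives none, and 64 member names occur in GENCODE release 29, but clone-based names are reused between releases. Only 11 members matched a gene of that release by name, chromosome and length. By that release 3 are antisense, 2 are lincRNAs (intergenic lncRNAs), 2 are processed transcripts, 2 lie in the intron of another gene on the same strand, and 2 are pseudogenes. The label noncoding could be checked for these 11 alone. None of the 861 names was in the RefSeq promoter table, so no promoter is shown.

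The last 150 bases of 2 of the 11 transcripts are shown, 5′ to 3′ on the transcript strand. Many exported transcripts end in a polyadenylation signal, and these 2 differ in the form of that signal and in their values after knockdown. Whether the signal bears on those values was not tested. Capitals mark AATAAA, the usual signal for cleavage and polyadenylation, or, in AC005083.1, its common variant ATTAAA. The sequences are from GENCODE release 29 on GRCh38. AC144652.1 (chr7:155295918-155296067, minus strand) was higher after knockdown in all 3 preparations. AC005083.1 (chr7:20221551-20221700, plus strand) was lower in nuclear and higher in cytosolic RNA after knockdown. Its 4 fraction libraries held only 0.532 to 2.80 FPKM.
AC144652.1: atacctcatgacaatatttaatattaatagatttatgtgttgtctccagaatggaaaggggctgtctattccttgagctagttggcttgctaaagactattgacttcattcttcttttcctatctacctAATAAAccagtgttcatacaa
AC005083.1: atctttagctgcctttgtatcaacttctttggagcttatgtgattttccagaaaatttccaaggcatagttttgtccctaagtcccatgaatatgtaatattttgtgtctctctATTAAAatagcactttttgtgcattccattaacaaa
Both motifs were searched on the transcript strand only, and each window shown holds 1 of them. AATAAA starts 21 bases before the end of AC144652.1, and ATTAAA 36 bases before the end of AC005083.1. AATAAA was in 4 and ATTAAA in 2 of the 11 matched transcripts. Of 65381 transcripts of the same types in the release, 23.6% have AATAAA and 10.6% have ATTAAA in a window of the same length.

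The labels were checked against RNAs of known behaviour. The HNRNPU locus, merged with HNRNPU-AS1, was at 43.0%, 39.0% and 22.1% of its control level in knockdown whole-cell, nuclear and cytosolic RNA. A share of its RNA thus remained, and HNRNPU mRNA cannot be told apart from HNRNPU-AS1 RNA in this merged value. MALAT1 and NEAT1, both nuclear lncRNAs, had 1984 and 67.2 FPKM in nuclear against 141 and 13.7 FPKM in cytosolic control RNA. GATA1, the erythroid transcription factor that marks K562, had 26.2 to 55.9 FPKM over the 6 libraries. The 3 B cell markers summed to 0.241 to 0.798 FPKM and MS4A1 was listed at 0 throughout. The 3 T cell markers summed to 12.3 to 18.9 FPKM, nearly all of it CD3D, and the 3 myeloid markers to 1.87 to 3.64 FPKM. Depth differed: over 1 kilobase of transcript, 1 FPKM was worth about 13.4 fragments in control cytosolic RNA, the shallowest library, and 39.5 in knockdown nuclear RNA, the deepest.

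The members were shorter and lower than other loci. Their median span was 3309 bases and their median level 2.27 FPKM, beside 32216.5 bases and 11.1 FPKM for the 10998 loci with at least 1 other kind of name. A short span and a low level both leave few fragments: 212 members spanned under 1000 bases, and 122 (14.9%) were listed at 0 in at least 1 library, against 4.13% of all 12825 loci. In 14 members a single library held over 90% of the FPKM summed over the 6, of 26 such loci in all. RP4-717I23.2 (169 bases), for example, had 35.1 FPKM in control whole-cell RNA and 0 in the other 5 libraries. A locus could also hold several names, and 34 members were merged from 2 or more of them. The name AC069277.2 was on 3 overlapping members.

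The most abundant members were not all alike in location. RP11-669N7.2 (chromosome 12, 129594174 to 129597839 on hg19) went, from control to knockdown, from 85.2 to 75.8 FPKM in whole-cell RNA, from 53.9 to 57.4 in the nucleus and from 266 to 224 in the cytosol. It was far higher in the cytosol in both conditions, although it lies wholly within TMEM132D, a membrane protein gene that was listed at 0 in all 6 libraries. RP11-301G19.1 (chromosome 6, 68597538 to 68599231), clear of every other named locus that is not clone-named, held between 120 and 130 FPKM in every library. AC016723.4 (chromosome 2, 168671284 to 168797654), which overlaps the glycosyltransferase gene B3GALT1 over part of its span, went from 48.2 to 43.6 FPKM in the nucleus and from 169 to 163 in the cytosol. B3GALT1 itself was nuclear, at 3.24 and 3.27 against 0.987 and 1.30 FPKM, so overlapping names did not share 1 ratio here.

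Among the other most abundant members, RP11-462G2.1 went from 23.6 to 30.4 FPKM in the nucleus and from 73.3 to 80.9 in the cytosol. RP11-620J15.3 was also cytosolic, with 23.1 and 32.0 against 78.3 and 76.3 FPKM. The merged locus of CTD-2314B22.2, CTD-2314B22.3 and RP11-496I2.6 (chromosome 14, 19832617 to 19925348) was the nuclear one of the 10 highest, with 52.7 and 52.6 FPKM in the nucleus against 19.2 and 20.6 in the cytosol. RP11-1415C14.3 and RP11-497H16.5, which lie at 69515745 and 69812214 in a duplicated region of chromosome 5, and RP11-169F17.1 on chromosome 18 had between 24.3 and 51.5 FPKM in every library. The first pair is uncertain because reads of near-identical copies could have been split between loci.

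In the control, members lay more to the nuclear side than other named loci. The median log2 ratio of nuclear to cytosolic FPKM, taken as log2(FPKM + 0.1), was 0.14 for members and -0.58 for other named loci, with quartiles of -0.75 and 1.65 for members. The sign of the members' own median depends on how the fractions are scaled, since other scalings moved the median ratio of other named loci at 5 FPKM or more from -0.72 to between -0.12 and 0.44. The members' median stood 0.72 above that of other named loci as deposited, 0.69 and 0.71 above it under 2 scalings of the totals or medians, and 0.15 above it after quantile normalization. At least 2-fold more nuclear were 277 members (33.9%, against 16.0% of all loci). At least 2-fold more cytosolic were 162 members (19.8%, against 29.1%). At a mean of 1 to 2 FPKM, 44.9% of members were 2-fold nuclear, a smaller share than the 49.3% of all loci there. At 2 to 5, 5 to 10 and 10 FPKM or more the shares were 29.2%, 19.3% and 19.7% of members, against 23.9%, 8.83% and 4.97% of all loci. All loci include those with no name, 80.2% of which were 2-fold nuclear. Among other named loci the shares were 27.4% at 1 to 2 FPKM, 13.3% at 2 to 5, 7.90% at 5 to 10 and 4.69% at 10 or more. The medians of members and other named loci were 0.74 and 0.12 at 1 to 2 FPKM, 0.02 and -0.22 at 2 to 5, -0.31 and -0.41 at 5 to 10, and -0.48 and -0.84 at 10 or more. The 1010 loci with no name were further to the nuclear side than the members, with a median of 2.94.

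The picture after knockdown was close to the control. The median ratio was 0.03 for members and -0.58 for other named loci, a gap of 0.60 that shrank to 0.08 after quantile normalization. A 2-fold nuclear ratio was found in 235 members (28.8%, against 14.4% of all loci) and a 2-fold cytosolic one in 161 (19.7%, against 28.4%). In both conditions at once, 197 members (24.1%) were nuclear, against 12.6% of all loci, and 110 (13.5%) were cytosolic, against 23.9%. From 2-fold nuclear to 2-fold cytosolic went 6 members (0.734%, against 0.148% of all loci), and 3 went the other way (0.367%, against 0.0468%). Across members the control and knockdown ratios had a Pearson correlation of 0.60 (817 loci), and of 0.80 over the 466 members of at least 1000 bases with at least 0.5 FPKM in each library. These are descriptions over loci that share 4 libraries, and over other named loci the values were 0.87 and 0.92.

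**Figure D1:**
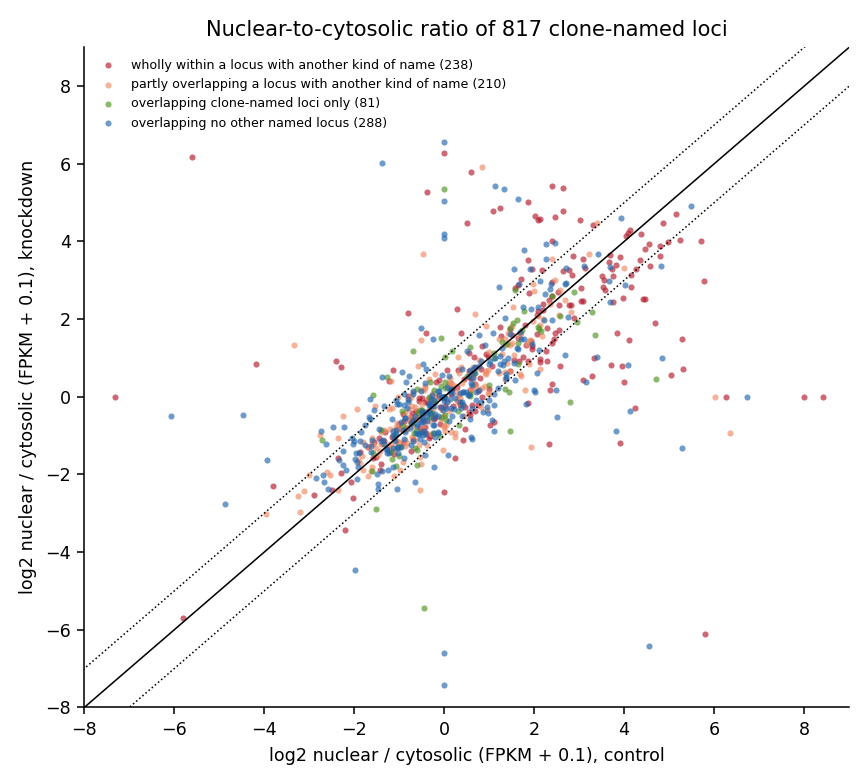
Each point is 1 of the 817 clone-named loci, by its log2 nuclear to cytosolic ratio in the control (horizontal) and after knockdown (vertical), coloured by overlap with other named loci. The solid line marks equal ratios and the dotted lines a 2-fold difference, with 116 loci at or below the lower dotted line and 96 at or above the upper one.

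Members also differed by their position relative to other genes. By the deposited coordinates, with strand not used, 238 members lay wholly within a locus with another kind of name, 210 overlapped such a locus in part, 81 overlapped clone-named loci only and 288 overlapped none. The median control ratio was 1.26 in the first group, -0.19 in the second, 0.00 in the third and -0.10 in the fourth. After knockdown the order was nearly the same, at 0.82, -0.10, 0.08 and -0.21. Of the members wholly within another locus, 40.8% were at least 2-fold nuclear in both conditions, against 15.7%, 23.5% and 16.7% in the other groups. This split into wholly and partly overlapping was chosen after the values were seen.

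The contained members were also the shortest, with a median span of 991 bases, against 31290.5 bases for the partly overlapping ones. Among contained members of at least 1000 bases the median control ratio was 0.66 (119 loci), and among those under 1000 bases it was 1.86 (119 loci). Members of at least 1000 bases in the other 3 groups had medians of -0.23, -0.07 and -0.24. With at least 0.5 FPKM required in each fraction library, which removes members that are low in the cytosol, the contained group had a median of -0.05 (112 loci) and the other groups stood at -0.30, -0.07 and -0.32. Under this requirement the nuclear median of the contained group was not seen. Because the rule itself takes out nuclear members with little cytosolic RNA, it cannot tell whether that median rests on poorly covered members. Among members averaging 2 FPKM or more, the contained group kept a median of 0.27 (101 loci), beside -0.28, 0.00 and -0.30 in the other groups. In that set 37.6% of contained members were 2-fold nuclear in the control, against 18.8%, 34.5% and 19.1%. Of all 238 contained members, 72 were listed at 0 in at least 1 library.

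The loci around the contained members did not share their ratio. For 217 contained members the surrounding locus itself had a mean of at least 1 FPKM. In these pairs the median control ratio was 1.58 for the member and -0.43 for the surrounding locus. The member was more nuclear than the surrounding locus in 170 pairs in the control, in 171 after knockdown and in 157 in both. The member was the lower of the pair in 200, with a median level of 0.123 times that of the surrounding locus. Whether fragments of unspliced RNA of the surrounding gene were counted at these members was not tested, and the strand setting of the counting was not given in the sources used here.

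**Figure D2:**
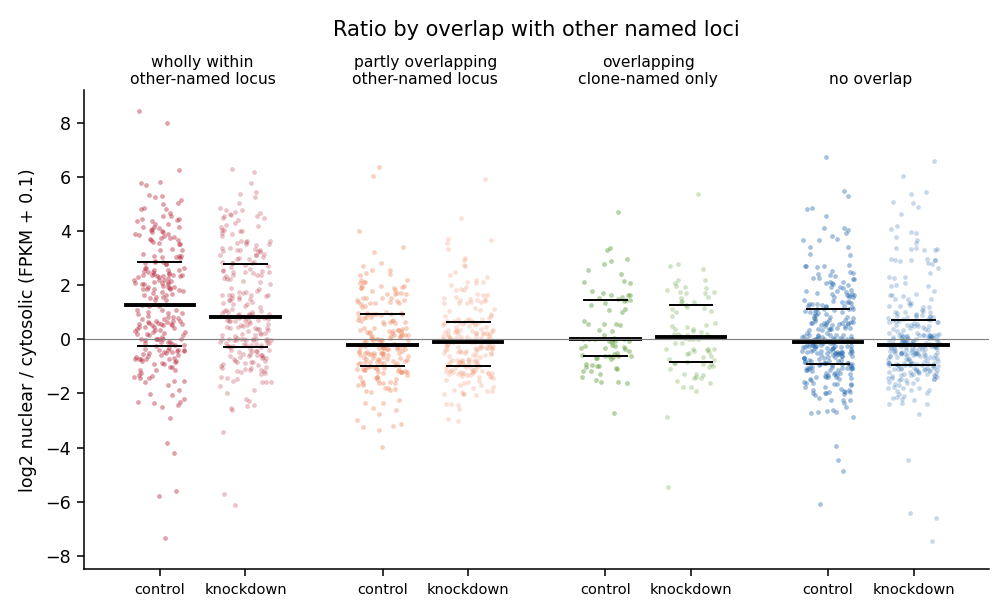
Log2 nuclear to cytosolic ratio of each member in the control and after knockdown, in the 4 overlap groups. The thick bar is the median and the thin bars are the quartiles over loci, not over replicates. The group wholly within another locus has medians of 1.26 and 0.82, and the other groups lie between -0.21 and 0.08.

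AC007743.1 is an abundant contained member. It is annotated as antisense and lies on chromosome 2, within a merged locus that holds CCDC85A, a coiled-coil protein gene. From control to knockdown it went from 25.6 to 25.4 FPKM in whole-cell RNA, from 19.0 to 19.1 in the nucleus and from 4.08 to 3.97 in the cytosol. Both conditions gave nearly the same nuclear ratio, 2.19 and 2.24 on the log2 scale. AC079466.1, a lincRNA on chromosome 19, went from 24.5 to 20.5 FPKM in the nucleus and from 15.2 to 13.4 in the cytosol, so its ratio of 0.69 and 0.61 was also kept, at a lower value.

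The most nuclear members of at least 1000 bases were listed at 0 in both cytosolic libraries, so no fold is given for them. RP11-785H5.2 had 2.31, 2.47, 3.47 and 2.51 FPKM in control and knockdown whole-cell and then nuclear RNA, within a merged locus of PRH1, PRR4 and taste receptor genes that had 5.14 and 3.52 FPKM in cytosolic RNA. AC015849.13 had 3.06 FPKM in control and 1.48 in knockdown nuclear RNA, within TAF15, an RNA-binding protein gene that was at 102 and 122 FPKM in the cytosol. RP11-347H15.4, AC140061.12 and RP11-290D2.3, the last within TPT1-AS1, had between 0.936 and 2.73 FPKM in the nuclear libraries. In all, 43 members (5.26%, against 1.74% of all loci) were listed at 0 in both cytosolic libraries.

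At the other end, RP11-122A3.2 (chromosome 8, 91970865 to 91997485) was cytosolic at a high level. It went from 15.8 to 18.7 FPKM in whole-cell RNA, from 7.98 to 8.82 in the nucleus and from 73.9 to 69.4 in the cytosol, a log2 ratio of -3.20 in the control and -2.96 after knockdown. It overlaps in part NECAB1, a calcium-binding protein gene with a similar ratio of -2.52 and -2.18 at a lower level. A member of 8750 bases partly over ZER1 on chromosome 9 (131486724 to 131495473) had 0.330 and 0.731 FPKM in the nucleus against 6.62 and 6.64 in the cytosol. RP11-15I11.3, RP11-17M16.2 and RP11-72M17.1 were cytosolic as well, but with at most 0.964 FPKM in any nuclear library.

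Members differed between knockdown and control in both directions, in about equal numbers. The localization shift is the log2 nuclear to cytosolic ratio after knockdown minus that in the control, and a negative shift is toward the cytosol. Its median was -0.05 over members (0.01 after quantile normalization) and 0.00 over all loci, with 436 members below 0 and 376 above. Shifts of at least 2-fold toward the cytosol were found in 116 members (14.2%, against 3.83% of all loci). Shifts of at least 2-fold toward the nucleus were found in 96 (11.8%, against 3.27%), which makes 212 either way (25.9%, against 7.10%). In this bulk RNA, a change in the number of cells with a transcript and a change in the amount per cell cannot be told apart.

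The share of shifted members followed their level. It was 36.9% either way at a mean of 1 to 2 FPKM (against 26.2% of all loci there), 21.2% at 2 to 5 (12.0%), 14.9% at 5 to 10 (2.48%) and 6.58% at 10 or more (0.907%). For other named loci the same steps gave 19.8%, 7.83%, 1.71% and 0.78%, so members were above other named loci in each step. With at least 0.5 FPKM in each fraction library, 44 of 573 members (7.68%, against 1.94% of all loci) shifted to the cytosol and 36 (6.28%, against 1.47%) to the nucleus. The share was also high in the shortest members: 78.1% of the 32 members of up to 300 bases shifted, 30 of which had a library at 0. It was 43.9% above that up to 1000 bases, 17.8% up to 5000, 20.4% up to 20000 and 18.2% up to 100000. Of the 66 members over 100000 bases, 12.1% shifted. Shares of all loci in these span steps are not given here. At 1 FPKM in each fraction library over 1 kilobase of transcript, counting alone gives a shift an error of about 0.67 on the log2 scale, and at 10 FPKM about 0.21. The transcript can be shorter than the span, and the error is then larger. AC005083.1, for example, spans 4124 bases and its matched transcript has 676.

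**Figure D3:**
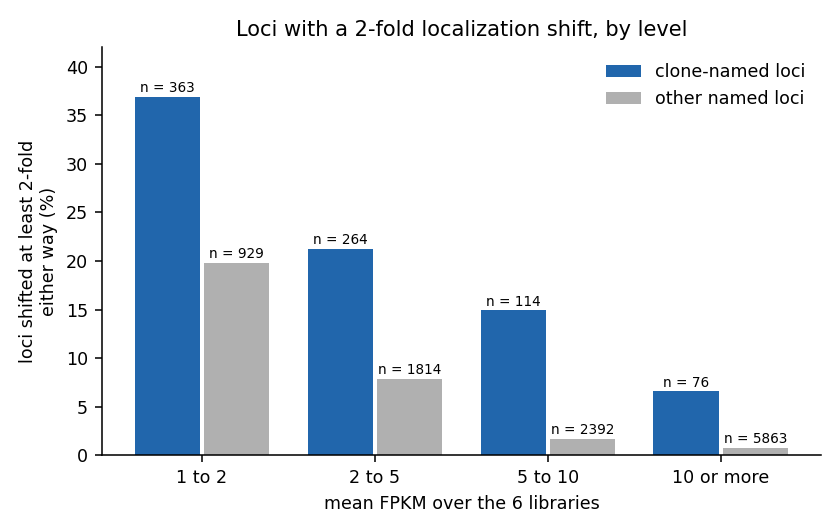
Share of loci, in percent, with a localization shift of at least 2-fold in either direction, by mean FPKM over the 6 libraries, for clone-named loci and for loci with other names. Each bar is a share of the loci printed above it. Clone-named loci go from 36.9% at 1 to 2 FPKM to 6.58% at 10 FPKM or more, and other named loci from 19.8% to 0.78%.

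Overlap groups differed less in the direction of the shift than in the ratio itself. The median shift was -0.16 for contained members, -0.02 for partly overlapping ones, -0.15 for those overlapping clone-named loci only and -0.05 for those with no overlap. The share shifted 2-fold either way was 34.9%, 15.2%, 24.7% and 26.7% in the same order, against 7.10% of all loci. With at least 0.5 FPKM in each fraction library the groups were close, at 13.4%, 12.6%, 14.7% and 15.2%. Of all loci that met this requirement, 3.40% shifted. Of the 206 loci that surround contained members at 1 FPKM or more, 3.40% shifted, with a median shift of 0.03. Their median level was 16.7 FPKM, against 1.71 FPKM for the contained members.

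Among members of at least 1000 bases with at least 0.5 FPKM in each fraction library (478 loci), AC113189.5 had the lowest shift. It lies at chromosome 17, 7485282 to 7487390, and overlaps MPDU1, a gene of the glycosylation pathway, over 26% of its span. It went from 2.77 to 0.960 FPKM in the nucleus and from 0.659 to 2.50 in the cytosol, which gives a shift of -3.21. MPDU1 had a shift of -0.06. Whole-cell RNA of AC113189.5 was at 1.15 and 0.827 FPKM.

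RP11-347H15.5 (chromosome 11) had the next lowest shift, -2.33, and here the difference was in the cytosol alone. It went from 3.35 to 3.41 FPKM in the nucleus and from 1.16 to 6.35 in the cytosol. RP11-485G7.5, within RMI2, a genome-stability gene, went from 1.25 to 1.05 FPKM in the nucleus and from 1.03 to 3.35 in the cytosol, a shift of -1.83, while RMI2 was at -0.03. RP11-262H14.1 and RP11-85G21.3 differed in the nucleus instead. They had 4.33 and 2.58 FPKM in control and 1.39 and 0.827 in knockdown nuclear RNA, with cytosolic values that differed by at most 0.06 on the log2 scale. Whole-cell RNA of RP11-262H14.1 went the other way from its nuclear RNA, from 0.356 to 0.906 FPKM, and that of RP11-85G21.3 went from 0.973 to 0.533. RP11-132A1.4 and CTD-2024D23.1 had shifts of -1.70 and -1.57.

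AC005083.1 (chromosome 7, 20257200 to 20261323), whose end is shown above with ATTAAA, went from 1.15 to 0.532 FPKM in the nucleus and from 1.86 to 2.80 in the cytosol. Its shift was -1.55, and -0.90 with a pseudocount of 1 FPKM. The transcript shown is 676 bases long. At 1 FPKM over 0.5 kilobases of transcript, counting alone gives a shift a 95% half-width of 1.87 on the log2 scale. All 8 members with the lowest shift were below 7 FPKM in every library.

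The highest shift belonged to a merged locus of 4 names, RP11-277L2.4, RP11-353N4.6, RP11-353N4.7 and RP11-353N4.8, at chromosome 1, 149575345 to 149637707. It went from 2.75 to 3.68 FPKM in whole-cell RNA, from 4.32 to 173 in the nucleus and from 2.38 to 2.79 in the cytosol. The shift of 5.07 thus comes from 1 library. RNVU1-20, a variant U1 small nuclear RNA gene, lies inside this locus and was listed at 15.6 FPKM in the same knockdown nuclear library and at 0 in the other 5. Its part in the value of the member was not tested.

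RP11-783K16.14 (chromosome 11, 63996686 to 64001824) had the next highest shift, 4.69, from 0.955 to 2.35 FPKM in the nucleus and from 10.6 to 0.867 in the cytosol. The merged locus of DNAJC4 and NUDT22 covers 99% of its span and had a shift of -0.55, with 109 and 117 FPKM in the cytosol. How fragments were divided between these loci was not given in the sources used here. AC113189.5 and RP11-783K16.14 are among 16 members (1.96%, against 0.273% of all loci) that differed at least 2-fold in opposite directions in nuclear and cytosolic RNA. This holds with the main pseudocount, and the nuclear ratio of both loci was under 2-fold with a pseudocount of 1 FPKM.

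RP11-773D16.1 (chromosome 10, 81563813 to 81586350) had at least 18.4 FPKM in every library, the highest such minimum of the 16 members with extreme shifts, and no locus with another kind of name overlaps it. It went from 31.5 to 28.1 FPKM in whole-cell RNA, from 18.4 to 37.0 in the nucleus and from 44.5 to 26.1 in the cytosol. Its nuclear RNA was 2-fold higher and its cytosolic RNA lower after knockdown, a shift of 1.77 at a nearly level whole-cell value. The merged RP5-1061H20.3 and RP5-1061H20.4 (chromosome 1, beside RAB4A and SPHAR) went from 7.70 to 11.7 FPKM in the nucleus and from 11.1 to 4.20 in the cytosol, a shift of 1.98. CTD-2134P3.1, RP11-98D18.9, RP4-791M13.3 and RP5-886K2.3 had shifts of 1.86, 1.77, 1.73 and 1.62, all below 5 FPKM in every library.

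**Figure D4:**
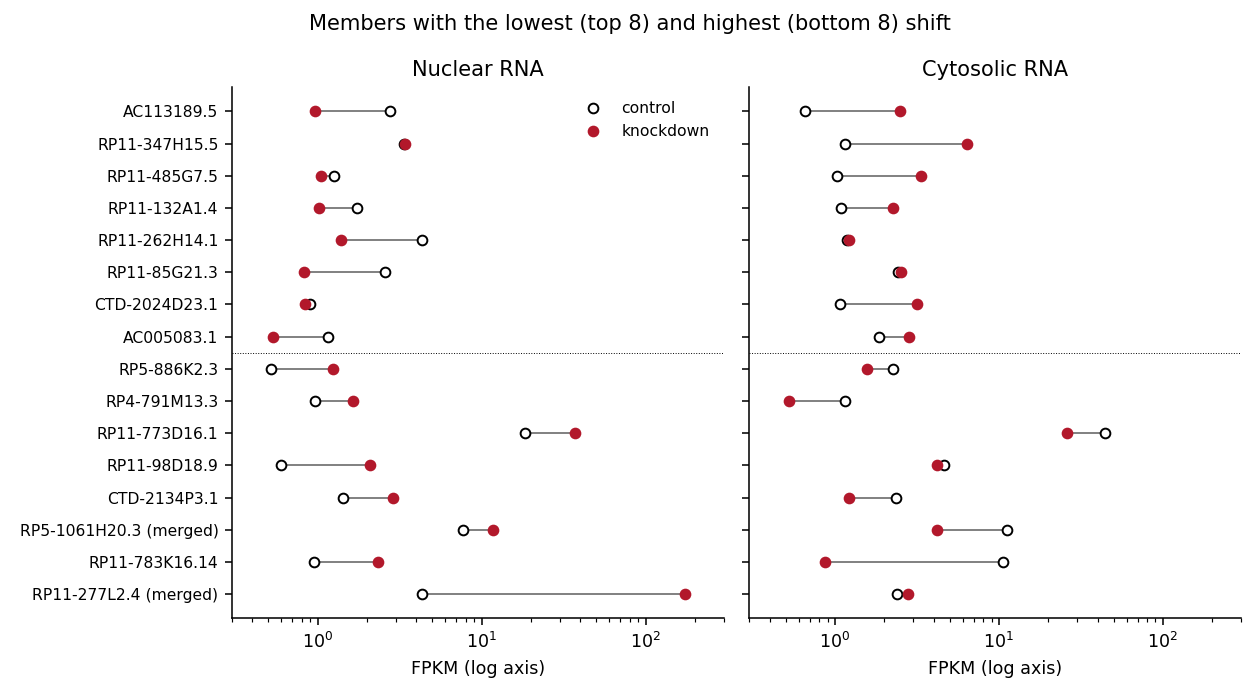
FPKM (log axis) in nuclear and cytosolic RNA of the 8 members with the lowest shift (top, lowest first) and the 8 with the highest (bottom, highest last), open circles for control and filled circles for knockdown, 1 library each. RP11-277L2.4 goes from 4.32 to 173 FPKM in nuclear RNA, and RP11-783K16.14 from 10.6 to 0.867 FPKM in cytosolic RNA.

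The level of members in whole-cell RNA had no common direction. The median log2 ratio of knockdown to control was 0.01 for members and 0.06 for all loci. At least 2-fold higher were 56 members (6.85%, against 1.36% of all loci) and at least 2-fold lower 43 (5.26%, against 1.29%). These shares depended on level. At a mean of 1 to 2 FPKM 16.8% of members differed 2-fold either way, against 10.1% of all loci there. At 2 to 5 the shares were 11.4% and 3.84%, at 5 to 10 they were 7.02% and 1.30%, and at 10 or more 0% and 0.336%. In nuclear RNA 46 members (5.63%, against 1.04%) were higher and 47 (5.75%, against 1.50%) lower. In cytosolic RNA 100 (12.2%, against 2.62%) were higher and 80 (9.79%, against 2.63%) lower.

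Few of these differences recurred between preparations. Across members the knockdown ratios of whole-cell and nuclear RNA had a Pearson correlation of -0.02, those of whole-cell and cytosolic RNA 0.10 and those of nuclear and cytosolic RNA -0.01 (817 loci). Over the 466 longer and better covered members they were 0.17, 0.18 and 0.22. Other named loci gave 0.15, 0.08 and 0.11 in the same order, and 0.21, 0.17 and 0.21 over the 10566 longer and better covered of them. Low agreement between preparations was therefore not particular to members. The points share the cell line, the annotation and the depth of each library. Higher after knockdown in all 3 preparations, by any amount, were 153 members (18.7%, against 24.6% of all loci), and lower in all 3 were 110 (13.5%, against 13.2%). A difference of at least 1.5-fold in all 3 was found in 15 members upward (1.84%, against 0.343%) and in 6 downward (0.734%, against 0.234%).

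Of the members higher in all 3, RP11-867G2.6 (chromosome 11, 94375073 to 94384797) had the largest smallest ratio. It went from 1.37 to 3.50 FPKM in whole-cell RNA, from 1.18 to 3.09 in the nucleus and from 1.18 to 2.65 in the cytosol, or 1.29, 1.31 and 1.11 on the log2 scale. AC144652.1 (chromosome 7, 155087628 to 155089251), the lincRNA whose end with AATAAA is shown above, went from 1.92 to 5.30, from 2.65 to 4.56 and from 4.49 to 10.9 FPKM in the same order. All 3 knockdown libraries were above their controls, by 1.42, 0.76 and 1.26. RP11-1017G21.5 (0.84, 1.05 and 1.22), RP5-1085F17.3 (1.01, 0.72 and 0.88), RP1-152L7.5 (0.57, 0.53 and 0.77) and CTD-2374C24.1 (0.89, 0.51 and 0.81) had 0.897 to 4.63 FPKM in single libraries.

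AC073236.3 was the most abundant member lower in all 3. It lies at chromosome 7, 153097005 to 153111048, and went from 102 to 63.0 FPKM in whole-cell RNA, from 94.6 to 62.2 in the nucleus and from 212 to 91.8 in the cytosol. The knockdown libraries kept 61.9% of the control level in whole-cell and 43.3% in cytosolic RNA. Because the cytosolic difference was the larger, its shift was 0.61. RP3-460G2.2 (chromosome 6, 141167095 to 141174061) went from 6.90 to 2.90 FPKM in whole-cell RNA, from 5.66 to 1.50 in the nucleus and from 12.7 to 5.47 in the cytosol. Its knockdown values were thus 42.9%, 27.7% and 43.5% of control.

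AC006262.5, overlapping the pseudogene IGFL1P1 on chromosome 19, went from 7.94 to 3.31 FPKM in whole-cell RNA, from 7.87 to 3.87 in the nucleus and from 8.28 to 5.84 in the cytosol. RP11-465B22.3, RP11-95P2.1 and AC129778.2 were lower as well, with log2 ratios between -0.46 and -1.14. The sign of the whole-cell ratio of all 12 loci was the same under each scaling and pseudocount tried for whole-cell RNA.

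**Figure D5:**
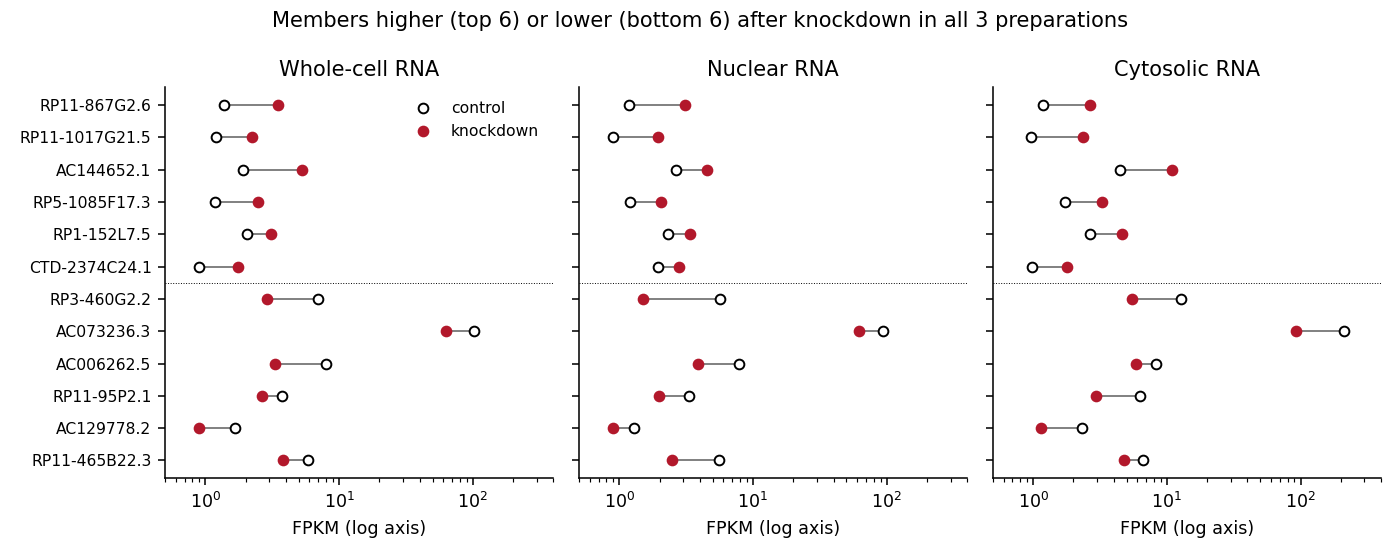
FPKM (log axis) in whole-cell, nuclear and cytosolic RNA of the 6 members with the largest smallest ratio upward (top) and downward (bottom), open circles for control and filled circles for knockdown, 1 library each. AC073236.3 lies at 62.2 to 212 FPKM, and the other 11 loci are below 13 FPKM.

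Among members under 1000 bases, the most abundant were RP5-857K21.7 and RP11-34P13.14, both near the start of chromosome 1. RP5-857K21.7 (568137 to 568818) went from 38.9 to 42.3 FPKM in whole-cell RNA, from 35.9 to 63.7 in the nucleus and from 35.3 to 31.0 in the cytosol. It is uncertain, because this region holds a nuclear copy of mitochondrial DNA. RP11-34P13.14 (139790 to 140339) was nuclear, at 38.1 and 34.5 against 7.30 and 4.48 FPKM. RP11-304L19.5, around the small nucleolar RNA gene SNORD60, held 12.6 to 17.9 FPKM in every library and RP11-785H5.1 held 8.18 to 19.8.

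Values just inside and just outside the minimum level were alike. The 4 members just inside had means of 1.002 to 1.017 FPKM, among them RP11-42O15.3, RP11-195B17.1 and RP1-168P16.2, and the 4 clone-named loci just outside had 0.9956 to 0.99996 FPKM, among them CTD-2376I4.2, RP11-686O6.2 and RP4-539M6.21. Single libraries ranged from 0 to 2.57 FPKM in the first set and from 0 to 3.83 in the second.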

How the data were processed

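RNA of K562 cells was measured in 6 libraries: whole-cell, nuclear and cytosolic RNA after control oligos or HNRNPU siRNA, 1 library per group as the sample titles give them. The authors deposited FPKM values, 1 column per library. The values and tools gave the unit, since no header states it. Cuffdiff 2.2.1, TopHat2 2.0.13, FastQC and CASAVA stand in the submitters' processing notes without roles, beside mm9 and hg19 as builds. The library scaling, the annotation and the strand setting of the counting were not given in the sources used here. Coordinates are those of the table, on hg19. Its starts count from 0, since end minus start equals the GENCODE gene length for 21715 of 30112 loci with the name of 1 gene, so 1 was added.

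Ratios are differences of log2(FPKM + 0.1), which understates the change of low loci. With 1 library per group no test was possible within a preparation, and a test over the 3 preparations was not run. Loci were described by counts past 2-fold, medians and values per library. The members, lists and rules were chosen with earlier results of these data known. Among members of at least 1000 bases, those named are the 10 with the highest mean, the 8 with the lowest and 8 with the highest shift (at least 0.5 FPKM in each fraction library), the 5 most nuclear and 5 most cytosolic (at least 0.5 FPKM in control whole-cell RNA), and the 6 each way with the largest smallest ratio in all 3 preparations (at least 0.5 FPKM in each library). The 4 highest members under 1000 bases and 4 loci on each side of the minimum are named too. Other named examples, such as RP4-717I23.2 and the sequences shown, were chosen after their values were seen. Overlap needed 1 base, and the overlapped locus is the one with the longest overlap.

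Fragments per FPKM were estimated from the steps between low values at 969 loci of 1 exon, after subtracting 220 bases from each length. Alternatives were another pseudocount, other minimum levels, 3 scalings and another overlap minimum. Python 3.11.15, numpy 2.4.6, pandas 2.3.3 and matplotlib 3.10.9 were used, and the calculation was tested on simulated data. Sequences of 2 further transcripts and a summed erythroid marker list are not reported here.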

Additional observations from a re-analysis of the deposited data

Results flagged for a closer look

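RP11-783K16.14 and AC113189.5 moved in opposite directions in the nuclear and cytosolic preparations, by at least 2-fold in each with the main pseudocount. RP11-783K16.14 was higher in nuclear and lower in cytosolic RNA after knockdown, a shift of 4.69. AC113189.5 was lower in nuclear and higher in cytosolic RNA, a shift of -3.21. Their nuclear log2 ratios were 0.78 and -0.94, in that order, with a pseudocount of 1 FPKM, each under 2-fold. AC113189.5 had only 0.659 to 2.77 FPKM in the fraction libraries. The merged locus of DNAJC4 and NUDT22 covers 99% of the span of RP11-783K16.14. With 1 library per group the difference between the preparations was not tested. Such opposite 2-fold differences were found in 16 members (1.96%) and in 0.273% of all loci.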

How the results depend on the processing

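No paired analysis was possible because the labels carry no replicate numbers. A fit that sets knockdown against control over the 3 preparations was not run. For 55 named members, the shift and 3 level ratios each (220 ratios) were recomputed with another pseudocount and 3 scalings. Of the 66 past 2-fold, 0 changed sign and 35 dropped below 2-fold with a pseudocount of 1 FPKM. Of the others, 11 changed sign. Several medians near 0 also did. The median control ratio of 0.14 was -0.36 at a minimum mean of 5 FPKM, 0.72 when libraries were scaled to the median of other named loci and 1.26 after equalizing totals that leave out mitochondrial and small RNAs. The knockdown ratio of 0.03 was -0.31, 0.60 and 1.10 under the same settings and 0.23 with no minimum. The median shift of -0.05 was 0.0123 at 5 FPKM and 0.00826 after quantile normalization, and that of members overlapping another kind of name was 0.0413 at 5 FPKM. The whole-cell median of 0.01 was -0.0242 at 5 FPKM, -0.0378 under median scaling and -0.0232 with equal totals.

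Other settings were a pseudocount of 1 FPKM (817 loci), a minimum mean of 5 FPKM (190) and no minimum (5743 of the 20117 clone-named loci). They gave 50, 9 and 1017 shifts to the cytosol (6.12%, 4.74% and 17.7%) and 45, 13 and 1073 to the nucleus (5.51%, 6.84% and 18.7%). In whole-cell RNA 18, 3 and 688 loci were higher and 17, 5 and 707 lower. Shares of all loci under these settings are not given here. With the main pseudocount, 2.48% of all loci at 5 to 10 FPKM and 0.907% at 10 or more shifted either way. Alternatives added after seeing the data required 0.5 FPKM in each fraction library, which gave 44 and 36 shifts of 573 loci and control ratios of -0.0487 for contained members and -0.32 for those with no overlap, or 1000 bases, which gave 0.66 for contained members. The cause of these differences was not tested. Depth limits every count at low FPKM.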

Other observations

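Members were also described by the letters that begin their first name. The 568 members whose first name begins with RP had a median control ratio of 0.16, the 135 with AC 0.01, the 94 with CT 0.27, and the few with AP (12) and AL (8) 0.94 and 0.54. Their median shifts were -0.03, -0.04, -0.27, -0.41 and 0.03 in that order. The 34 members merged from several names had 0.33, and 4 of them (11.8%) shifted by at least 2-fold, beside 25.9% of all members (7.10% of all loci). Their median level was higher, 5.54 FPKM against 2.27 FPKM for all members. Of members at 5 to 10 FPKM, 14.9% shifted (2.48% of all loci there).

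Members with no overlap were split by their distance to the nearest named locus. Those within 1000 bases of one (108) had a median control ratio of -0.01 and those farther away (180) one of -0.13. The shares shifted by at least 2-fold were 21.3% and 30.0%, against 7.10% of all loci. The shares listed at 0 in at least 1 library were 11.1% and 15.6%, against 4.13% of all loci. Chromosome 1 held 109 members, chromosome 2 held 67 and chromosome X held 15.

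Some members were detected in 1 library. AC007136.1, a pseudogene of 199 bases within BTBD2, had 7.66 FPKM in knockdown nuclear RNA and 0 elsewhere. CTA-276O3.4, of 171 bases within PSMC2, had 34.3 FPKM in control nuclear RNA and 0 elsewhere.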
